A study of Mus musculus with 9 samples.

Results

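Liver cells clear surplus tyrosine and tryptophan through short chains of enzymes, and 9 of these enzymes are described here across normal, fibrotic and recovering mouse liver. The genes were taken by symbol from a table of 21873 genes, all 9 were found there once, and all 9 were among the 14094 genes with enough signal to be tested. Of these, 5 degrade tyrosine (Tat, Hpd, Hgd, Gstz1 and Fah) and 4 degrade tryptophan through kynurenine (Tdo2, Kmo, Kynu and Haao). Liver RNA of male C57BL/6 mice, aged 8 weeks at the start, was sequenced, with 3 mice per group. The control group was given saline by intraperitoneal injection for 8 weeks. The TAA group was given thioacetamide, a hepatotoxin that causes fibrosis, at 200 mg/kg every 3 days for the same 8 weeks, and livers of both groups were taken 72 h after the final injection. The recovery group had the same course of TAA followed by 8 more weeks without it, so these mice were 8 weeks older when killed, and age-matched control mice were not analysed here.

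Tyrosine enters its route when tyrosine aminotransferase (Tat) removes the amino group. Hpd then makes homogentisate, Hgd opens its ring, Gstz1 isomerizes the product and Fah splits it into fumarate and acetoacetate. Inherited loss of Fah causes hepatorenal tyrosinaemia and inherited loss of Hgd causes alkaptonuria. Tryptophan dioxygenase (Tdo2) opens the indole ring of tryptophan in hepatocytes, Kmo hydroxylates kynurenine, Kynu cleaves it to hydroxyanthranilate, and Haao turns this into a semialdehyde that can close to quinolinate, the precursor of NAD. Tat and Tdo2 are classical glucocorticoid-inducible genes of the liver.

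Sequences around annotated start sites are given first, since Tat and Tdo2 begin the routes and Hgd was the enzyme that differed between recovery and control liver. Each is the RefSeq promoter window (250 bases before the start site to 50 after it, build GRCm38.p6, written in the direction of the gene). Capitals mark matches on either strand to the CCAAT box (letters CCAAT, reverse ATTGG) or to the core bound by the aryl hydrocarbon receptor (letters GCGTG, reverse CACGC). No base lay in more than 1 match.
Tat: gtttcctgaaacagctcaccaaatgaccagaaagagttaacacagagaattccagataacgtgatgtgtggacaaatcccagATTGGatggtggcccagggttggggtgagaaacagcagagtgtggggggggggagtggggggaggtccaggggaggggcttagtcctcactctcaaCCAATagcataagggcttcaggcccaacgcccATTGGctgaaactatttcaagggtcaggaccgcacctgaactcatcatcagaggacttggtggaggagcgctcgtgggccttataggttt
Tdo2: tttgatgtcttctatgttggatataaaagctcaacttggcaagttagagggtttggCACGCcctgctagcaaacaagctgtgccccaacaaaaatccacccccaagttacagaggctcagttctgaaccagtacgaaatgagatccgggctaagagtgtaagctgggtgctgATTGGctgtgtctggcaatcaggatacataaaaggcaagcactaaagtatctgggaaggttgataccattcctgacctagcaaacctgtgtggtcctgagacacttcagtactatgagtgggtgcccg
Hgd: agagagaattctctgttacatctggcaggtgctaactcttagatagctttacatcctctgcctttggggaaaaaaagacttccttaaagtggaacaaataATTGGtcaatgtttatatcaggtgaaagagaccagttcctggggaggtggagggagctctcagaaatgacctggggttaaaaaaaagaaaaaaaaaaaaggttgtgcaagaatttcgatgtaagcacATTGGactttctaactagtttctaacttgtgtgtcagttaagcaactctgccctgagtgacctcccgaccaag
These windows lie at chr8:109990186-109990485 on the plus strand, chr3:81975679-81975978 on the minus strand and chr16:37579903-37580202 on the plus strand. In the Tat window, CCAAT boxes began 168, 72 and 40 bases before the start site, and in the Hgd window 150 and 23 bases before it. The Tdo2 window held 1 CCAAT box, 78 bases before the start, and 1 aryl hydrocarbon receptor core, 194 bases before it.

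Windows were found for 8 of the 9 enzymes (9 windows, 2 of them for Gstz1). The CCAAT box was in 5 of the 9 windows, those of Tat, Tdo2, Hgd and both of Gstz1, and in 37.4% of all 32851 windows of this length. The aryl hydrocarbon receptor core was in 3 of the 9 (Tdo2, Fah and Haao) and in 32.4% of all. The glucocorticoid receptor half-site, with the letters AGAACA, was in the Kmo and Haao windows and in 19.0% of all. The half-site of HNF1, spelled GTTAAT, was in the Haao window and in 7.1% of all, and a core of the HNF4 site, spelled CAAAGTC, was in the Kmo window and in 4.44% of all. None of the 9 windows held the C/EBP palindrome (TTGCGCAA, in 0.183% of all), the cAMP response element (TGACGTCA, in 1.79%) or the D-box of clock output factors (TTATGTAA, in 0.938%). All motifs were searched on both strands. A match describes the letters of this window only. The windows of Tdo2, Kmo, Fah and Haao lie wholly within the gene loci given below, as does a window of Gstz1.

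Values below are FPKM (fragments mapped to a gene, per kilobase and per M fragments of the library) divided by 1 factor per library, called scaled FPKM. Libraries held an estimated 26.95 to 40.65 M fragments. Factors were 0.827 to 0.878 for control, 1.29 to 1.38 for TAA and 0.893 to 0.907 for recovery libraries, so scaling lowered TAA relative to control libraries by 0.64 (log2). After it, the median log2 fold change of all tested genes was 0.02 for TAA against control, and without it 0.63. Changes are therefore relative to the median gene. Groups were compared with limma on log2(scaled FPKM + 0.1), which understates the change of genes with low values, and p-values were adjusted over all tested genes. "Rose" and "fell" are used for an adjusted p under 0.05, and DEG for genes that also changed at least 2-fold. Comparisons of TAA with control and of recovery with TAA share the TAA libraries, so their changes are linked by construction.

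In TAA-fibrotic liver all 9 enzymes fell, with a median log2 fold change of -1.55. DEGs made up 8 of the 9, where 8.02% of all tested genes were lower DEGs. By the adjusted p alone 9 of 9 were lower, where 26.3% of all genes were. In each of the 9 the highest TAA mouse lay below the lowest control mouse, as in 31.0% of all genes. Hpd and Tdo2 had the largest falls, to levels 5.61-fold and 5.23-fold lower, and Kmo the smallest, 1.91-fold. The size of these changes depended on the scaling. With FPKM as deposited 3 of the 9 were DEGs (Tat, Hpd and Tdo2), with quantile normalization 3 (Hpd, Tdo2 and Kynu), and with libraries scaled to a sum of 1 M or to hepatocyte markers 2 (Hpd and Tdo2). Lower DEGs among all 14094 tested genes numbered 421, 1266, 343 and 327 under these scalings in turn, and 1131 at the scaling used here. All 9 were lower in the TAA group under each of these scalings. Quantile normalization also changed the order, with a larger log2 fall of Tdo2 (-1.36) than of Hpd (-1.24) and a smaller one of Tat (-0.45) than of Fah (-0.46). Whole liver was sequenced, so fewer hepatocytes and less RNA per hepatocyte cannot be told apart.

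**Figure D1:**
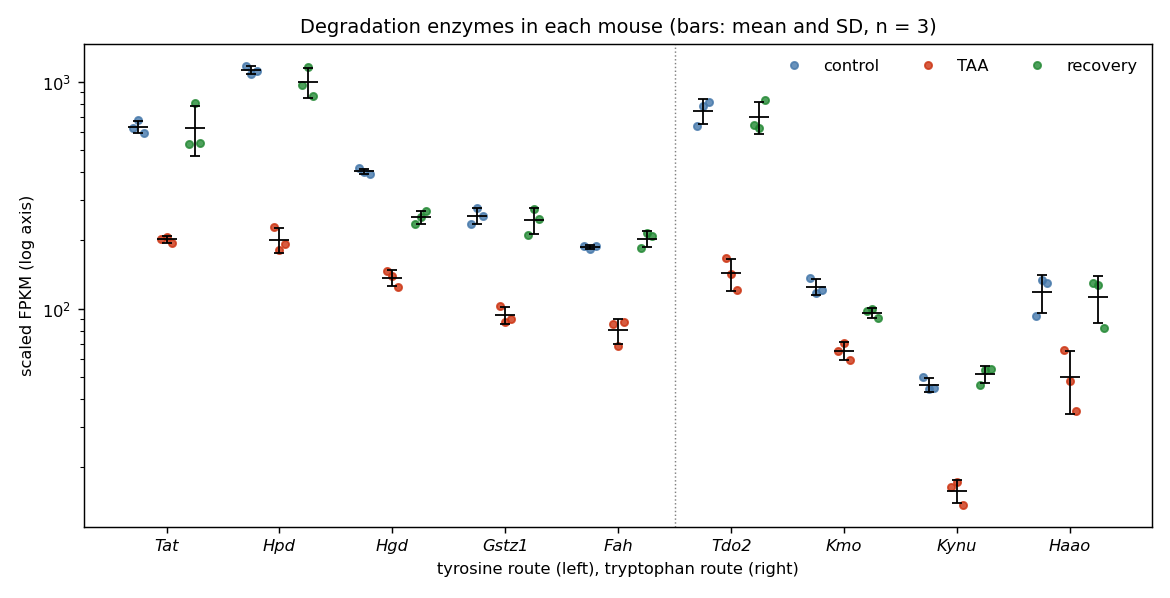
Scaled FPKM (log axis) of each enzyme in each mouse, with 3 mice per group as points and the mean and SD as bars, tyrosine enzymes left of the dotted line and tryptophan enzymes right of it. For every enzyme the 3 TAA mice lie below all control and recovery mice, and the recovery mice of Hgd and Kmo lie between the other groups.

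Tat, which takes the amino group from tyrosine, stood at 627, 675 and 594 scaled FPKM in control mice, at 204, 207 and 194 in TAA mice and at 532, 805 and 538 in recovery mice. The TAA mice lay close together and well apart from the others, and 1 recovery mouse exceeded every control mouse. The log2 fold change was -1.65 for TAA against control (SE 0.10, limma adjusted p = 1.5e-05) and 1.60 for recovery against TAA (SE 0.17, limma adjusted p = 0.00018). Hpd, the dioxygenase that makes homogentisate and the target of the drug nitisinone, had the highest scaled FPKM of the 9 in control liver. Its scaled FPKM was 1172, 1078 and 1117 in control mice, 229, 180 and 193 in TAA mice, and 966, 1164 and 868 in recovery mice. Its log2 fold change in the TAA group was -2.49 (SE 0.12, limma adjusted p = 7.4e-06), and it rose by 2.31 in recovery (SE 0.15, limma adjusted p = 2.2e-05). Of all tested genes, 0.951% had a fold change at or below that of Hpd in the TAA group.

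Hgd opens the ring of homogentisate. It stood at 415, 399 and 393 scaled FPKM in control mice, 146, 139 and 125 in TAA mice, and 236, 253 and 270 in recovery mice, so that the 3 groups did not overlap. It fell by 1.56 on the log2 scale in the TAA group (limma adjusted p = 1.8e-05) and rose by 0.89 in recovery (limma adjusted p = 0.00028), a change of 1.85-fold that is under the limit for a DEG. Its recovery against TAA difference was 0.33 with FPKM as deposited (limma adjusted p = 0.013) and 0.14 with quantile normalization (limma adjusted p = 0.18). It was 0.12 with a sum of 1 M (limma adjusted p = 0.21) and turned to -0.13 with hepatocyte markers (limma adjusted p = 0.32). Gstz1, a glutathione transferase that isomerizes maleylacetoacetate, stood at 237, 277 and 257 in control mice, 102, 87.6 and 90.3 in TAA mice and 212, 275 and 249 in recovery mice. Recovery and control mice of Gstz1 covered about the same range. Its log2 fold changes were -1.46 for TAA against control and 1.39 for recovery against TAA (limma adjusted p = 3.2e-05 and 8.0e-05).

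Fah, which performs the last step of the tyrosine route, stood at 189, 182 and 188 scaled FPKM in control mice. TAA mice had 85.2, 68.5 and 86.9, and recovery mice 186, 215 and 209. It had the smallest fall of the tyrosine enzymes at this scaling, by 1.22 on the log2 scale (SE 0.11, limma adjusted p = 9.1e-05), and rose by 1.35 in recovery (SE 0.12, limma adjusted p = 8.7e-05). Among the 5 tyrosine enzymes the log2 fall thus ranged from 1.22 at the last step to 2.49 at the step of Hpd.

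Tdo2, the haem dioxygenase that commits tryptophan to the kynurenine route, stood at 641, 781 and 814 scaled FPKM in control mice, 166, 141 and 121 in TAA mice and 641, 624 and 826 in recovery mice. Control and recovery mice overlapped, and all TAA mice lay far below them. TAA against control gave a log2 fold change of -2.39 (SE 0.15, limma adjusted p = 2.0e-05) and recovery against TAA one of 2.29 (SE 0.16, limma adjusted p = 3.0e-05). Kmo, a flavoprotein of the outer mitochondrial membrane, stood at 136, 117 and 121 in control mice, 65.3, 70.9 and 59.5 in TAA mice and 97.3, 99.4 and 90.6 in recovery mice. The recovery mice of Kmo lay between the other groups without touching either. It fell by 0.93 and rose by 0.56 on the log2 scale (limma adjusted p = 0.00023 and 0.0020), below 2-fold each way. Its rise in recovery was not seen under the 4 other scalings, where the log2 fold change was -0.0045 with FPKM as deposited, -0.016 with quantile normalization, -0.21 with a sum of 1 M and -0.46 with hepatocyte markers.

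Kynu, a pyridoxal phosphate enzyme, had the lowest scaled FPKM of the 9 in every group. It stood at 49.9, 44.2 and 44.5 scaled FPKM in control mice, 16.4, 17.2 and 13.7 in TAA mice and 46.1, 53.9 and 54.4 in recovery mice. It fell by 1.55 and rose by 1.70 on the log2 scale (limma adjusted p = 3.5e-05 and 2.9e-05). Haao is the iron dioxygenase that opens hydroxyanthranilate. Its scaled FPKM was 92.5, 134 and 129 in control mice, 65.9, 48.0 and 35.4 in TAA mice and 129, 127 and 82.4 in recovery mice. Control mouse 1 and recovery mouse 3 stood below the others of their groups, and every TAA mouse lay below both. It fell by 1.28 (SE 0.24, limma adjusted p = 0.0029) and rose by 1.19 (SE 0.25, limma adjusted p = 0.0053), and the rise was 0.97, under 2-fold, without TAA mouse 3. With hepatocyte markers these log2 fold changes were -0.43 and 0.18 (limma adjusted p = 0.060 and 0.38).

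At the scaling used here, all 9 enzymes rose in recovery liver against TAA liver, where 24.5% of all tested genes did. Their median log2 fold change was 1.39. DEGs were 7 of the 9, where 7.12% of all genes were higher DEGs, and 9 of 9 did not overlap between the groups, as 29.4% of all genes did. Hgd and Kmo rose by less than 2-fold. The number of DEGs was 4 with FPKM as deposited, 3 with quantile normalization, 2 with a sum of 1 M and 2 with hepatocyte markers, and Hpd and Tdo2 were DEGs under each of them. Of all 14094 tested genes, 409, 1132, 315 and 219 were higher DEGs under these scalings in turn, and 1003 at the scaling used here. Kmo had -0.0045 with FPKM as deposited and -0.016 with quantile normalization (limma adjusted p = 0.97 and 0.90), had -0.21 with a sum of 1 M (limma adjusted p = 0.066) and fell by 0.46 with hepatocyte markers (limma adjusted p = 0.0048). Hgd had 0.14 with quantile normalization, 0.12 with a sum of 1 M and -0.13 with hepatocyte markers. Haao had 0.66, 0.43 and 0.18 in turn (limma adjusted p = 0.058, 0.12 and 0.38). By adjusted p, 8 of the 9 rose with FPKM as deposited, 6 with quantile normalization and 6 with a sum of 1 M. With hepatocyte markers 7 passed, Kmo among them as lower. Higher genes among all 14094 numbered 1141, 3317, 803 and 524 in turn, and 3453 at the scaling used here.

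**Figure D2:**
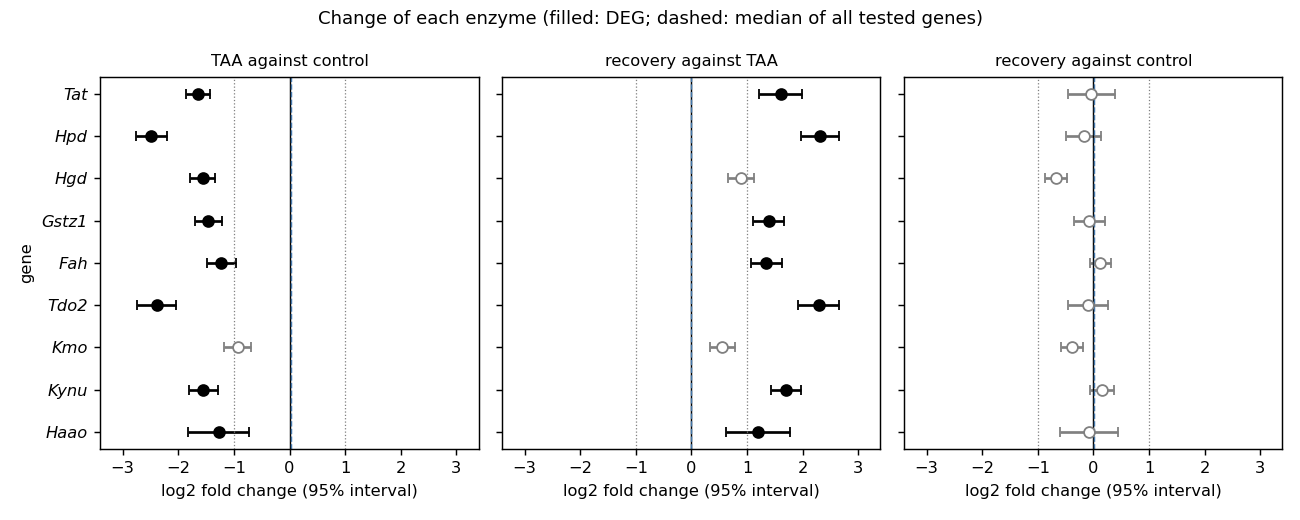
Log2 fold change of each enzyme with its 95% interval for TAA against control, recovery against TAA and recovery against control, with DEGs filled, 2-fold changes as dotted lines and the median of all tested genes dashed. All intervals lie below 0 in the first panel and above 0 in the second, and in the third the intervals of Hgd and Kmo lie below 0.

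For each of the 9 enzymes the log2 fall in the TAA group was larger at the scaling used here than at the 4 others. Across the 5 scalings, the log2 fold change of TAA against control ranged from -2.49 to -1.24 for Hpd, from -2.39 to -1.36 for Tdo2 and from -1.65 to -0.45 for Tat. For Kmo it ranged from -0.93 to -0.09, and for Fah from -1.22 to -0.38. By adjusted p, 9 of the 9 enzymes were lower with FPKM as deposited. With quantile normalization 8 were (all but Kmo), and with either of the remaining scalings 7 (all but Kmo and Haao). Of all 14094 tested genes, 1198 were lower with FPKM as deposited and 3666 with quantile normalization. With a sum of 1 M 859 were, with hepatocyte markers 802, and at the scaling used here 3708.

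**Figure D3:**
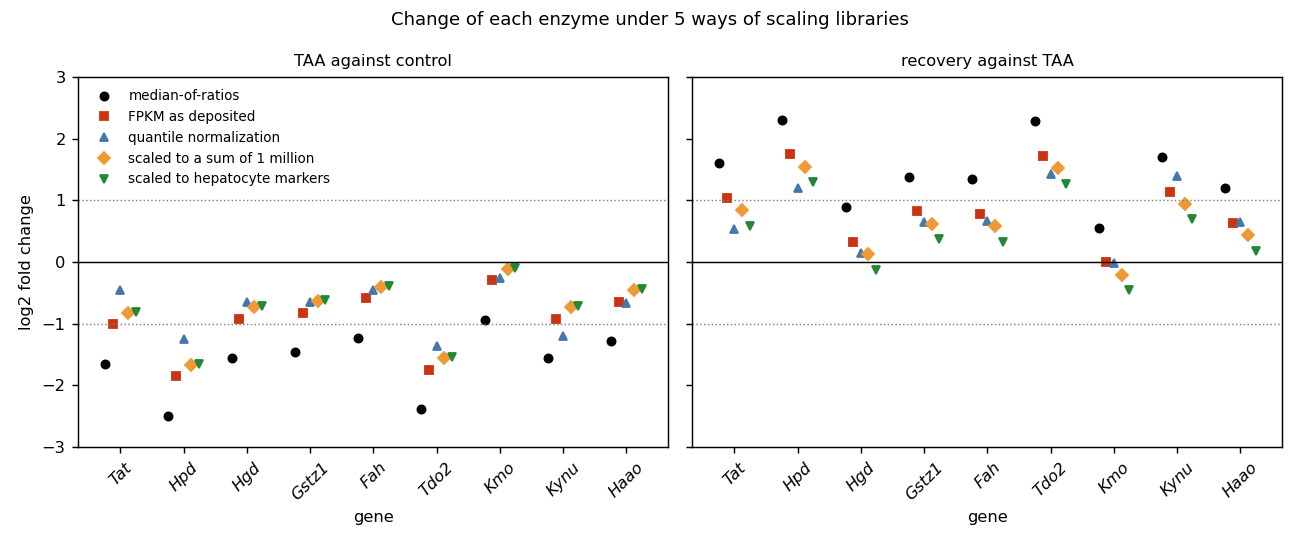
Log2 fold change of each enzyme under 5 ways of scaling libraries, for TAA against control and recovery against TAA, with 2-fold changes as dotted lines. Every point of the first panel lies below 0, and in the second panel Kmo falls to or below 0 under 4 scalings while Hpd and Tdo2 stay above 2-fold under all 5.

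Against the control group, none of the 9 enzymes was a DEG in recovery liver by limma, where 0.993% of all tested genes were DEGs. By unadjusted p, 2 of the 9 differed (Hgd and Kmo), and limma's treat called 0 of all 14094 tested genes. By unadjusted p, the lists of related genes described below ran from 2 of 8 (tetrahydrobiopterin) to 10 of 13 (clock). Cell type markers ran from 0 of 6 (endothelial) to 3 of 6 (cholangiocyte). The share of all tested genes at this limit is not given here. The count of 2 is therefore not read as a result about the enzymes. Hgd was the 1 enzyme that was lower by adjusted p, where 1.38% of all genes were. Its recovery mice lay at 235.6 to 269.9 scaled FPKM and its control mice at 392.7 to 414.7, a log2 difference of -0.67 (95% interval -0.86 to -0.48, limma adjusted p = 0.018). This call was lost when any 1 of 4 mice was left out. The limma adjusted p was 0.069 without control mouse 2, 0.063 without control mouse 3, 0.082 without recovery mouse 2 and 0.055 without recovery mouse 3, while the log2 difference stayed between -0.72 and -0.62 with any 1 mouse left out. The adjusted p stayed under 0.05 under all 4 other scalings, with log2 differences from -0.84 to -0.51. Kmo also did not overlap between recovery and control mice, at -0.38 on the log2 scale (95% interval -0.58 to -0.18), with a limma adjusted p of 0.067. Lack of overlap was common in this comparison. Of all 14094 tested genes, 2194 were lower and 2064 higher without overlap, beside 2 of the 9 enzymes lower. With hepatocyte markers Kmo had -0.55 and a limma adjusted p of 0.014, so that 2 of the 9 were lower there. Intervals of the other enzymes included 0. They ran from -0.46 to 0.38 for Tat, -0.50 to 0.14 for Hpd, -0.47 to 0.27 for Tdo2, -0.61 to 0.44 for Haao, -0.35 to 0.21 for Gstz1, -0.07 to 0.31 for Fah and -0.07 to 0.37 for Kynu. Differences within these bounds could not be told from 0 with 3 mice per group.

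At the scaling used here, 43.1% of the log2 fall of Hgd in the TAA group was still there in recovery liver. This share was 49.4%, 43.0% and 36.8% in the 3 recovery mice. For the other 7 enzymes called in the TAA group it ran from -9.93% for Fah to 7.13% for Hpd. Kmo was not called in the TAA group, so it has no share here. Its log2 fold change was -0.93 for TAA against control and -0.38 for recovery against control, so Hgd was not alone in staying below control. The median of the 8 was 4.55% (SD 9.502 over the 3 recovery mice), and that of all 1131 genes called lower in the TAA group was 14.4%. With 1 mouse left out the median of the 8 ran from -0.092% without recovery mouse 1 to 11.3% without recovery mouse 2, and it was 0.38% without control mouse 2, 7.08% without control mouse 1 and 0.055% without recovery mouse 3. With scaling to hepatocyte markers it was 23.8%. The share of Hgd also depended on the scaling. Its log2 fold change of TAA against control was -0.92 as deposited, -0.65 with quantile normalization, -0.73 with a sum of 1 M and -0.72 with hepatocyte markers. That of recovery against TAA was 0.33, 0.14, 0.12 and -0.13 in turn, so less of its fall was regained under these scalings.

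Levels also changed order. FPKM is per length of gene, and levels are set side by side here on that basis. The length given to a gene can depend on its annotated transcripts, 2 for Tat and 6 for Hpd, so the order between genes is approximate. In control liver Hpd led with a mean of 1122 ± 47.3 scaled FPKM (SD, n = 3), followed by Tdo2 at 745 ± 91.9, Tat at 632 ± 40.3, Hgd at 402 ± 11.4, Gstz1 at 257 ± 20.1, Fah at 186 ± 3.69, Kmo at 125 ± 10.3, Haao at 119 ± 22.7 and Kynu at 46.2 ± 3.22. The neighbours Tdo2 and Tat overlapped between mice, as did Kmo and Haao. In TAA liver Tat (202 ± 6.61) and Hpd (201 ± 25.2) stood level at the top, and Kynu (15.8 ± 1.86) stayed last. In recovery liver the order of the first 3 was again Hpd, Tdo2 and Tat, and Hgd at 253 ± 17.2 overlapped with Gstz1 at 245 ± 31.8 and this with Fah at 203 ± 15.6, neighbours that had been apart in control liver.

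Ratios of 2 enzymes within 1 library do not depend on the factor by which that library is divided, but quantile normalization changes them. They were compared for 11 pairs in 3 comparisons by an exact two-sided permutation test, which with 3 mice against 3 cannot give a p below 0.1. That p was reached wherever groups are said not to overlap here, and its Benjamini-Hochberg value over the 33 tests was 0.165. Groups stood apart for 8 of the 11 pairs in TAA against control, 8 in recovery against TAA and 4 in recovery against control. Of all pairs of tested genes above 0 in every library, 63.7%, 61.0% and 27.9% stood apart in these comparisons, so these counts lie close to the background. The ratio of Fah to Hpd, the last step to the step that makes homogentisate, was 0.166 ± 0.0042 in control mice, 0.401 ± 0.0434 in TAA mice and 0.206 ± 0.0302 in recovery mice (SD, n = 3). All 3 groups stood apart, with the highest ratios in TAA liver. Hgd to Hpd was 0.358 ± 0.01001 in control mice, 0.685 ± 0.0742 in TAA mice and 0.257 ± 0.0484 in recovery mice, and again no group overlapped another, with recovery now below control. With quantile normalization the log2 difference of Fah to Hpd between TAA and control was 0.79 in place of 1.27, and that of Kynu to Kmo, described next, -0.93 in place of -0.62. The sign was kept in 20 of the 20 cases without overlap.

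Gstz1 to Hgd was 0.571, 0.694 and 0.653 in control mice, 0.700, 0.630 and 0.725 in TAA mice and 0.898, 1.09 and 0.923 in recovery mice. Control and TAA mice overlapped, and recovery mice lay above both. In the tryptophan route Kmo to Tdo2 was 0.170 ± 0.0368 in control mice, 0.462 ± 0.0604 in TAA mice and 0.140 ± 0.0268 in recovery mice, with TAA apart from both. Kynu to Kmo moved the other way, at 0.371 ± 0.00655, 0.241 ± 0.0110 and 0.539 ± 0.0634, and no group overlapped another. The ratios of Fah to Gstz1 and of Haao to Kynu overlapped between the groups in all 3 comparisons. Tdo2 to Tat was lower in TAA mice (0.707 ± 0.1001) than in control mice (1.18 ± 0.175) without overlap.

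**Figure D4:**
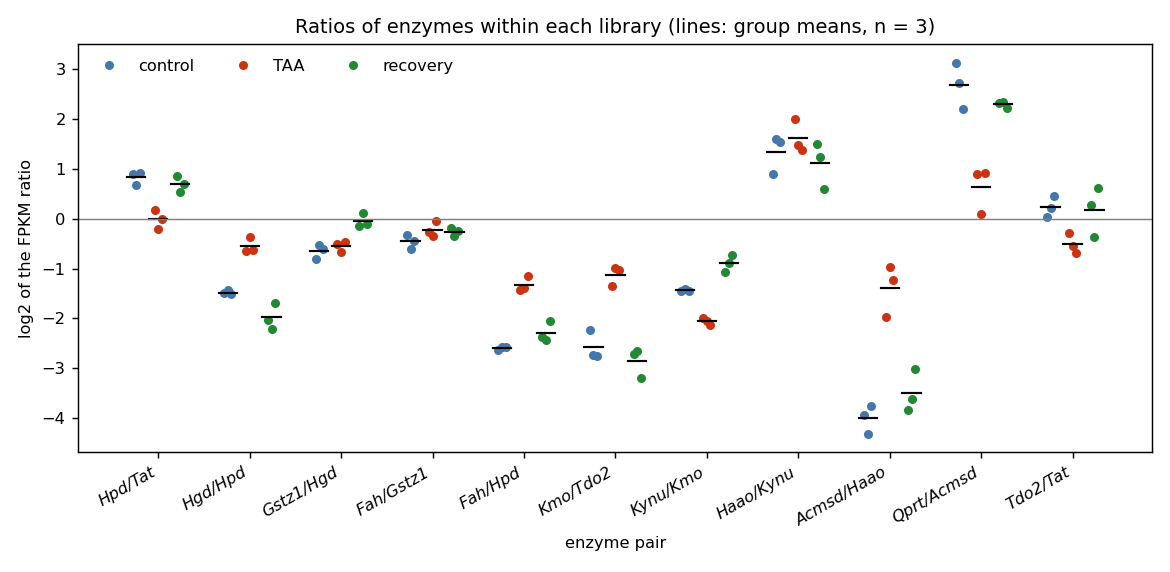
Log2 of the FPKM ratio of enzyme pairs within each library, with 3 mice per group as points and group means as lines. The TAA mice stand apart from control mice for 8 of the 11 pairs, against 63.7% of all gene pairs, upward for Fah/Hpd, Kmo/Tdo2 and Acmsd/Haao and downward for Kynu/Kmo and Qprt/Acmsd.

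Tetrahydrobiopterin is a cofactor of aromatic amino acid metabolism. Of 8 genes tied to this cofactor or its use, Dnajc12 among them, 7 fell in the TAA group, and the DEGs were Gchfr and Pts. The list had a median of -0.91 on the log2 scale, but of -0.07 with hepatocyte markers, where 1 gene was lower and 1 higher by adjusted p. Gchfr, the feedback regulator of the cofactor's synthesis, had -1.24, Pts -1.11 and Gch1, the first enzyme of that synthesis, -0.92. Qdpr, which recycles the cofactor, varied from 48.3 to 102 scaled FPKM in TAA mice and from 80.7 to 127 in control mice (log2 fold change -0.37, limma adjusted p = 0.31).

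Beside the tyrosine route, 9 genes of transamination and amine metabolism were followed. DEGs were 3 lower and 1 higher, where 17.0% of all tested genes were higher DEGs, and the list's median log2 fold change was -0.49 but 0.15 to 0.35 under the 4 other scalings. Got1, the cytosolic aspartate aminotransferase, fell by 2.46 on the log2 scale, the monoamine oxidase gene Maob by 1.53 and Il4i1, an oxidase of aromatic amino acids, by 1.23. Maoa, the other monoamine oxidase, stood at 3.21, 2.67 and 2.29 scaled FPKM in control mice and at 6.19, 9.91 and 7.59 in TAA mice. It rose by 1.49 (limma adjusted p = 0.00059) and fell again by 1.38 in recovery (limma adjusted p = 0.00050), where 14.3% of all genes were lower DEGs. The level of Maob remained above that of Maoa in every mouse.

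Of 13 further genes of tryptophan metabolism, 11 were tested, and Ido1 and Tph1 were at or near 0 (at most 0.0335 and 0.0132 scaled FPKM). In the TAA group 9 of the 11 fell, 6 of them as DEGs, and 1 rose. With hepatocyte markers 6 were lower and 2 higher by adjusted p, and the median was -1.30 here and -0.46 there. Afmid, which forms kynurenine, had a log2 fold change of -2.52, Aadat, an aminotransferase of kynurenine, of -2.41, and Ido2, a second dioxygenase of tryptophan, of -1.47. The genes of the glutarate arm Dhtkd1 (-2.34) and Gcdh (-1.65), which lysine degradation shares, fell as well. In recovery 8 of the 11 rose, 5 as DEGs (the median of 0.87 turned to -0.15 with hepatocyte markers), among them Aadat by 2.24, Dhtkd1 by 1.84 and Afmid by 1.78. No gene of this list passed the adjusted p for recovery against control in limma, and by unadjusted p 5 of the 11 differed, a limit at which no share of all genes is given. With hepatocyte markers 5 of the 11 were lower by adjusted p, 1 of them as a DEG.

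Acmsd was the 1 gene of the list that rose at this scaling. It removes a carboxyl group from the semialdehyde that Haao makes and so diverts it from quinolinate and NAD. Its scaled FPKM was 6.03, 6.78 and 9.63 in control mice, 16.8, 24.6 and 15.02 in TAA mice and 9.03, 10.3 and 10.2 in recovery mice. TAA mice lay above all others, and recovery and control mice overlapped. Acmsd rose by 1.32 on the log2 scale (SE 0.23, limma adjusted p = 0.0021) and fell by 0.90 in recovery (SE 0.18, limma adjusted p = 0.0041). The ratio of Acmsd to Haao was 0.0634 ± 0.0121 in control mice, 0.397 ± 0.131 in TAA mice and 0.0918 ± 0.0287 in recovery mice, a 6.09-fold higher ratio in TAA than in control liver. Qprt, which takes quinolinate towards NAD, fell by 0.71 on the log2 scale (-0.26 to 0.13 under the other scalings, past the adjusted p in none), and its ratio to Acmsd was 6.60 ± 2.09 in control, 1.60 ± 0.467 in TAA and 4.90 ± 0.206 in recovery mice. Both ratios set TAA mice apart from the other groups. Acmsd was counted on far fewer fragments than the 9 enzymes, an estimated 380 to 3579 per library against at least 4472.

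**Figure D5:**
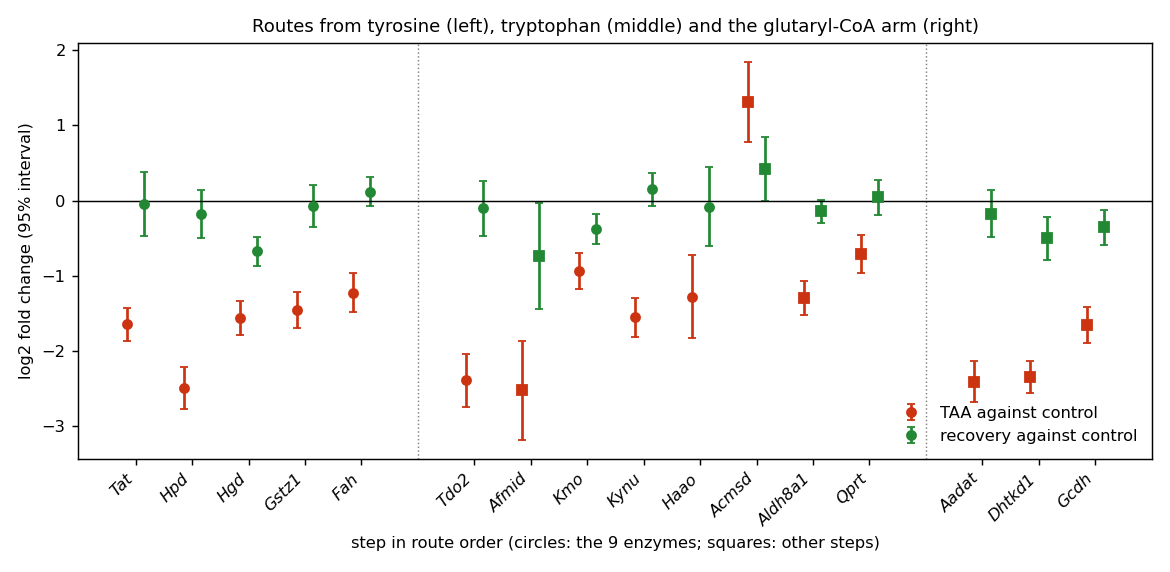
Log2 fold change with 95% interval along the routes from tyrosine, from tryptophan and in the glutaryl-CoA arm, for TAA against control (red) and recovery against control (green). Every TAA value is below 0 except Acmsd at 1.32, and among recovery values Hgd is the lowest of the first route at -0.67.

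NAD can also be made from nicotinamide and nicotinic acid. Of 8 genes of that salvage and of NAD synthesis, 4 fell in the TAA group, and their list had a median of -0.45 (log2) that turned to 0.18 with FPKM as deposited, 0.37 with a sum of 1 M and 0.38 with hepatocyte markers. Nnmt, which methylates nicotinamide, had the largest fall at -2.22 on the log2 scale (limma adjusted p = 2.8e-06). Naprt, which uses nicotinic acid, fell by 1.25 (limma adjusted p = 0.00010). Nampt, which uses nicotinamide, had a log2 fold change of -0.04 (95% interval -0.38 to 0.31). Nmrk1, a kinase of nicotinamide riboside, was at 3.46, 3.48 and 3.22 scaled FPKM in recovery mice and 10.03, 5.81 and 9.63 in control mice, a log2 difference of -1.26 (limma adjusted p = 0.040), which passed in 1 of 6 fits with 1 mouse left out.

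Of 7 transporters of aromatic and neutral amino acids, 2 fell as DEGs and 2 rose as DEGs in the TAA group. Slc38a4, a sodium-coupled transporter of hepatocytes, fell by 1.46 on the log2 scale and Slc16a10, which carries aromatic amino acids, by 1.29. Slc43a2 and Slc7a8 rose by 1.07 and 1.03. With FPKM as deposited the DEGs were 4, all higher. Slc16a10 stood at 26.0, 27.1 and 27.5 scaled FPKM in recovery mice against 39.7, 40.4 and 39.0 in control mice, without overlap (log2 difference -0.56, limma adjusted p = 0.014, under 0.05 in 2 of 6 fits with 1 mouse left out).

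Degradation of other amino acids moved alongside. Of 13 genes for histidine, proline, lysine, glycine and serine, 13 fell in the TAA group and 9 were DEGs, with a median log2 fold change of -1.28 (-0.44 with hepatocyte markers, where 7 fell). Prodh, which starts proline degradation, had -2.20, Aass of the lysine route -2.10, Hal of the histidine route -2.06 and Prodh2 -1.70. In recovery 12 of the 13 rose, with a median of 1.497 (0.49 with hepatocyte markers). The list was not compared with the 9 enzymes by a test.

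Some regulators with a known link to these enzymes were measured as well. Of 12 liver transcription factors, 9 fell in the TAA group and 5 were DEGs, but with a sum of 1 M or with hepatocyte markers 4 were lower and 5 higher by adjusted p. Cebpa and Ppara had log2 fold changes of -1.48 each, Prox1 of -1.25 and Hnf4a of -1.11, and Hnf4a rose by 1.07 in recovery (0.06 with hepatocyte markers). In the glucocorticoid list of 10 genes, 5 fell and 1 rose, and with FPKM as deposited 2 fell and 2 rose. The DEGs were Pck1 (-2.53), a gluconeogenic enzyme, and Hsd11b1 (-2.11), which regenerates active glucocorticoid. The receptor gene Nr3c1, named after its values were seen, had -0.15 (95% interval -0.44 to 0.13). In the list of 8 genes of the aryl hydrocarbon receptor, which kynurenine can activate, 7 were tested, 3 rose and 1 fell, and the DEGs were Cyp1a1 and Nqo1. Cyp1a1 stood at 0.292, 0.433 and 0.304 scaled FPKM in control mice, 15.7, 41.7 and 26.5 in TAA mice and 0.426, 0.311 and 0.367 in recovery mice, a log2 fold change of 5.89 (limma adjusted p = 1.3e-05). Nqo1 rose by 1.48. The gene that fell was Cyp1a2, a main target of the receptor in hepatocytes, by 0.37 (limma adjusted p = 0.028), named after its values were seen. Its FPKM as deposited was 183, 181 and 157 in control mice and 182, 213 and 232 in TAA mice. By adjusted p, 0 genes of this list were lower under each other scaling. Higher were 6 with FPKM as deposited, 4 with quantile normalization, 7 with a sum of 1 M and 7 with hepatocyte markers. The part of these regulators in the change of the 9 enzymes was not tested.

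Several markers of cell types moved with the same comparison. Of 10 hepatocyte markers 6 fell in the TAA group and 4 were DEGs (Apoa1, Apoa2, Apoh and F2), with a median log2 fold change of -0.63 that turned to 0.27 with quantile normalization and 0.01 with FPKM as deposited. Their summed scaled FPKM was 44179 to 48720 in control, 26949 to 34814 in TAA and 54880 to 56665 in recovery mice, and no marker was at 0. Alb alone made up most of each sum, and by adjusted p 0 of the 10 differed between recovery and control liver. Of the 8 stellate cell and fibroblast markers 6 were higher DEGs in the TAA group (sums 76.3 to 126 in control, 292 to 372 in TAA and 104 to 141 in recovery mice). The same held for 6 of 6 cholangiocyte markers (15.7 to 21.0, 295 to 443 and 27.9 to 38.4), 4 of 10 macrophage markers (125 to 204, 258 to 334 and 222 to 303) and 2 of 6 tested lymphocyte and dendritic cell markers (6.22 to 6.96, 13.2 to 15.7 and 4.36 to 9.61). Most of the cholangiocyte sum in TAA mice was Spp1, at 415, 284 and 274 scaled FPKM. The 6 endothelial markers had a median log2 fold change of -0.13 (0.50 with FPKM as deposited) and sums of 48.5 to 86.7, 50.7 to 67.7 and 77.9 to 87.5. Skeletal muscle markers summed to 33.1 in TAA mouse 3 and to at most 0.0746 in every other mouse, and without TAA mouse 3 the number of DEGs among the 9 enzymes in the TAA group was again 8. The part of these cells in the fall of the enzymes was not tested.

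Between recovery and control liver the clock genes differed most among the lists. Of 13 genes of the clock and its output, 7 were DEGs, with Dbp (-3.21), Ciart (-2.78), Per3 (-2.24) and Tef (-1.57) lower and Arntl (2.90) and Npas2 (3.03) higher in recovery on the log2 scale. With 1 mouse left out the adjusted p of these genes stayed under 0.05 in 1 of 6 fits for Ciart, 2 for Dbp, 3 for Arntl and Npas2 and 4 for Tef. The hour of collection is not given in the sources used here, and the part of time of day in the differences of Hgd and Kmo was not tested.

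The genes whose course over the 9 libraries was most like the median course of the 9 enzymes were Acadm, Cisd1, Acsm3, Slc4a4 and Gpld1. Their root mean square difference from that median ran from 0.0995 to 0.111 on the log2 scale, among 14085 candidates. Acadm stood at 193, 189 and 177 scaled FPKM in control mice, 62.9, 55.0 and 58.3 in TAA mice and 161, 190 and 172 in recovery mice. Of the 9 enzymes Tat (0.115) and Gstz1 (0.120) lay nearest to the median course, and Hpd (0.542) and Tdo2 (0.517) the farthest.

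Where the genes lie bears on how they were counted. The loci in the table (mm10) are chr8:109990437-109999803 for Tat, chr5:123171807-123182727 for Hpd, chr16:37580153-37632020 for Hgd, chr12:87147165-87164723 for Gstz1 and chr7:84585159-84606722 for Fah. Those of the tryptophan route are chr3:81957090-81976202 for Tdo2, chr1:175601004-175662116 for Kmo, chr2:43555329-43695740 for Kynu and chr17:83831156-83847963 for Haao. Hpd overlaps Psmd9, Gstz1 overlaps Pomt2 and Kmo overlaps Fh1, each on the opposite strand. By the annotation, Hpd also overlaps Gm26745 on its own strand, and Gstz1 overlaps Gm6566 and Hgd Gm46559 on the opposite strand. These 3 genes were not analysed here. Whether reads were counted by strand is not given in the sources used here, so reads of the shared stretches cannot be told apart. Psmd9 and Pomt2 reached at most 15.8 and 19.9 scaled FPKM, well under Hpd and Gstz1 in the same mice. Fh1 stood at 93.01 to 94.96 in control, 39.2 to 43.7 in TAA and 59.9 to 73.2 in recovery mice, near the level of Kmo and in the same order of groups.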

How the data were processed

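Liver RNA of 9 mice was sequenced by the authors as 150 bp paired-end reads, mapped to mm10 with HISAT2 2.2.1, counted per gene with featureCounts 1.5.0-p3 and deposited as FPKM, without further scaling between libraries. Groups were taken from the labels, and all 9 columns were used. The small RNA and other assays were not analysed here.

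Each library was divided by its median-of-ratios factor over the 14005 genes above 0 in every library. Genes averaging 0.1 FPKM or more were compared pairwise with limma 3.58.1 in R 4.3.3 (lmFit, eBayes with trend) on log2(scaled FPKM + 0.1), from the 6 libraries of each comparison, with Benjamini-Hochberg adjustment. The limits for a DEG, an adjusted p under 0.05 and a 2-fold change, are those of the study. Ratios were tested by an exact permutation over mice with numpy 2.4.6, and scipy 1.17.1 was used for the 95% intervals. Steps were tested on simulated data. Depth came from the steps between low FPKM values. Of these, 49.5% to 60.1% per library were whole fragments within 0.05, so no count test was made, and the error given is the spread between mice.

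The 9 enzymes and all 19 gene lists were chosen with earlier results of these data known. All enzymes are named, with any gene of the tetrahydrobiopterin, tyrosine, tryptophan and NAD lists, up to 4 DEGs per direction from each other list and the 5 nearest courses. Promoter windows were from RefSeq (GRCm38.p6) and matched by symbol. The window for Kynu was not analysed here. A listed gene and a promoter window are not reported here.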

Additional observations from a re-analysis of the deposited data

How the results depend on the processing

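In TAA against control, DEGs among the 9 enzymes numbered 3 with FPKM as deposited, 3 with quantile normalization, 2 with a sum of 1 M and 2 with hepatocyte markers, in place of 8, and DEGs among the 101 genes of the 10 pathway lists 26, 28, 26 and 26, in place of 42. Lower DEGs among all tested genes numbered 421, 1266, 343 and 327, in place of 1131. In recovery against TAA the enzymes numbered 4, 3, 2 and 2 in place of 7, and higher DEGs among all tested genes 409, 1132, 315 and 219 in place of 1003. Higher genes made up 67.9% of all DEGs of TAA against control, but 91.2%, 55.7%, 94.3% and 94.5% under these scalings, and 33.2% of those of recovery against TAA, but 9.89%, 44.9%, 5.86% and 3.13%. Against control, recovery had 58.6% higher, but 36.6% with hepatocyte markers and 69.3% as deposited. With treat against a 2-fold change, DEGs of the pathway lists numbered 18 in TAA against control and 18 in recovery against TAA (36 otherwise), and those of the enzymes 4 in recovery against TAA. Directions turned for Kmo, recovery against TAA (-0.0045 as deposited, -0.016 with quantile normalization, -0.21 with a sum of 1 M, -0.46 with hepatocyte markers) and for Hgd (-0.13 with hepatocyte markers). The share of the fall left was 23.8% with hepatocyte markers, in place of 4.55%. The cause was not tested.

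Recovery against control had 8 DEGs in the pathway lists, but 3 without a filter on low values, 0 with treat, and 2 to 6 with 1 mouse left out (5 without control mouse 1, 5 without control mouse 2, 2 without control mouse 3, 3 without recovery mouse 2, 4 without recovery mouse 3). With 1 mouse left out, DEGs among the enzymes stayed at 8 in TAA against control and numbered 6 to 7 in recovery against TAA. Mice with the same number shared no origin in the labels, and their deviations correlated at r = -0.07 to 0.12 over 9 pairs (1 above 0.1), so the numbers do not pair the mice. With the replicate block the enzymes called were again 8 and 7, the pathway list genes in recovery against control 3, and the limma adjusted p of Hgd in that comparison 0.066. Apart from treat, the other pseudocounts, filters and moderations left the counts of called enzymes at 8 and 7. Over all other settings with every mouse kept, treat among them, the limma adjusted p of TAA against control reached 0.26 for Fah and 0.74 for Haao. It went higher still for Kmo. By scaling alone, the limma adjusted p of Kmo was 0.052 with quantile normalization, 0.35 with a sum of 1 M and 0.51 with hepatocyte markers. That of Haao was 0.077 with a sum of 1 M and 0.060 with hepatocyte markers. With 3 mice per group, small differences between recovery and control liver were not detectable. Ratios under quantile normalization were an alternative chosen after seeing the data.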
